A study of Mus musculus with 6 samples.

Results

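Scn4a, Clcn1, Atp1b1, Atp1b2 and Fxyd1 encode proteins that set the electrical excitability of the muscle fibre membrane. The genes were taken by symbol from the count table, and all 5 were found among its 47967 genes and passed the filter on low counts. RNA was sequenced from a calf muscle, the gastrocnemius, in male C57BL/6 mice that were 20 to 24 weeks old. Mice of the high phosphate (HP) group were fed for 12 weeks on chow whose total phosphate was 2.3% and inorganic phosphate 2.0%. For the normal phosphate (NP) group these were 0.9% and 0.6% over the same time. Both diets held 0.9% sodium, 1.8% potassium, 1.9% calcium and 0.3% magnesium, and no genetic change is named in the labels. Each diet had 3 libraries. The labels do not say whether each came from a separate mouse, so the p-values cover the spread among these libraries alone, which may be technical.

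A muscle action potential is carried by sodium entering through the channel Nav1.4, whose pore is encoded by Scn4a. Unlike in nerve, much of the resting conductance that steadies the membrane is carried by chloride through ClC-1, the product of Clcn1, and loss of ClC-1 causes myotonia, a failure to relax. The sodium/potassium pump then restores the ion gradients. It joins a catalytic alpha subunit with a beta subunit needed for its folding and delivery to the membrane, here beta 1 (Atp1b1) or beta 2 (Atp1b2). Phospholemman, encoded by Fxyd1, is a small membrane protein that holds the pump back until it is phosphorylated. In rat muscle, beta 2 prevails in fast glycolytic fibres and beta 1 in slow oxidative ones.

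The libraries held 21856006 to 27474251 gene counts, and the lowest count of any of the 5 genes in any library was 2248, a counting error of 2.11%. Levels below are CPM, counts scaled to the library total after TMM normalization, given as mean ± SD (n = 3 per diet). Log2 fold changes are HP over NP ± an approximate SE, from edgeR's quasi-likelihood test with Benjamini-Hochberg adjustment over 15347 genes, and the threshold for a call was an adjusted p of 0.05. NP replicate 2 stood apart from the other NP libraries on the first principal component. It lay at 75.4, against 36.5 and 43.8 for NP replicates 1 and 3, with the HP libraries at -53.0, -51.1 and -51.5. For the 5 genes and the listed genes picked by smallest p, calls or signs that change without NP replicate 2 are given with both values. Genes named after their values were seen, and the marker lists, are given from all libraries only. The 10 skeletal myofibre markers were all expressed, their summed level being 88232 to 101790 CPM in HP and 34174 to 49723 CPM in NP libraries. In such bulk samples, more or fewer cells of a type cannot be told apart from more or less RNA per cell.

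With TMM scaling 4 of the 5 genes rose on the high phosphate diet and 0 fell, where 23.0% of all genes tested rose, 26.3% fell and 49.3% changed in either direction. With library size alone 2 rose and 1 fell, and scaled to 10 skeletal myofibre genes 1 rose and 2 fell, as set out further on. Scn4a rose 2.52-fold, Atp1b2 2.08-fold, Clcn1 1.91-fold and Fxyd1 1.35-fold. Atp1b1 alone was not called. In the same 4 genes every HP library lay above every NP library. This held for 30.3% of all genes, the reverse for 32.1%, and either for 62.4%. The median log2 fold change of the 5 genes was 0.94, beside -0.016 over all genes tested.

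**Figure D1:**
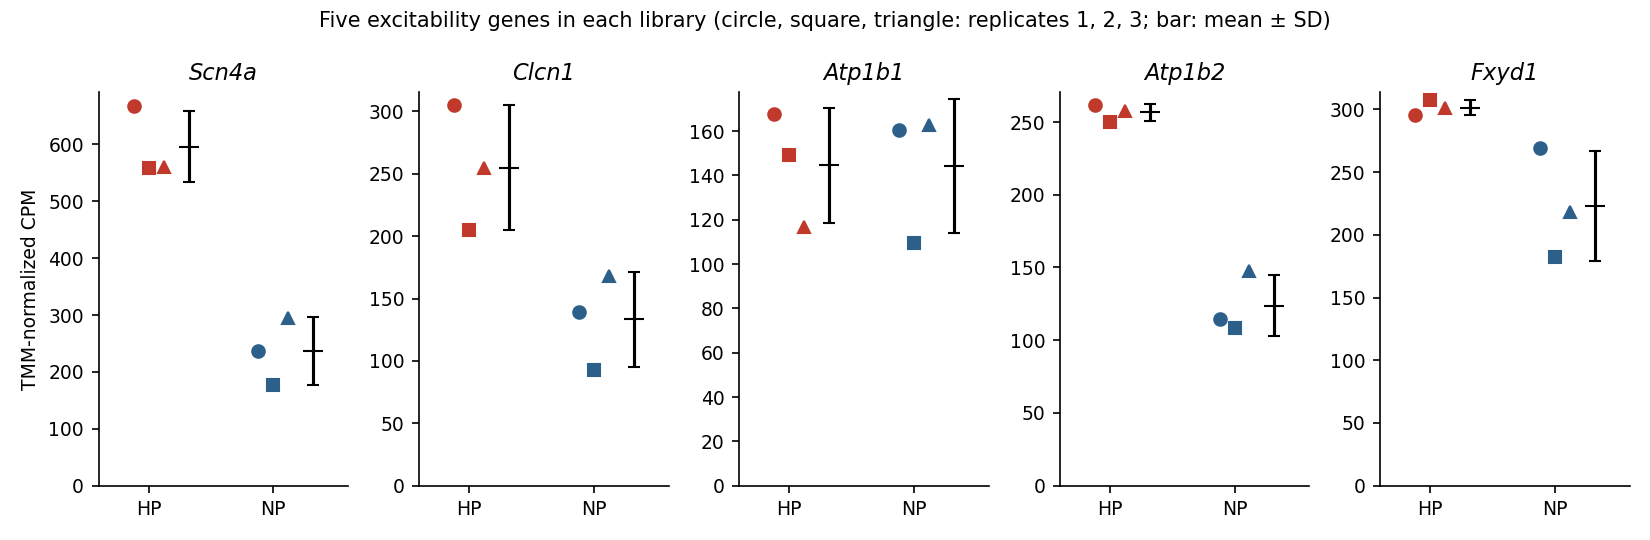
TMM-normalized CPM of Scn4a, Clcn1, Atp1b1, Atp1b2 and Fxyd1 in each library, with HP left of NP in each panel; circles, squares and triangles are replicates 1, 2 and 3, and the bar is the mean ± SD. Each axis starts at 0. The HP libraries lie above the NP libraries in every panel except that of Atp1b1, where the diets overlap.

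Scn4a (ENSMUSG00000001027) lies on the minus strand at chr11:106318592-106353288 (GRCm38, GENCODE M21). None of its exonic bases are shared with another annotated gene, and 0.0720% of the 50-base stretches of its transcripts occur in transcripts of other genes. It stood at 668, 559 and 561 CPM in HP replicates 1, 2 and 3, against 237, 177 and 295 CPM in NP replicates 1, 2 and 3. The lowest HP library was well above the highest NP library. The means were 596 ± 62.2 CPM in HP and 236 ± 59.4 CPM in NP libraries, which is 1.33 ± 0.20 on the log2 scale (edgeR adjusted p = 0.00121). No library decided this result, since the log2 fold change ran from 1.16 without NP replicate 2 to 1.52 without NP replicate 3 (edgeR adjusted p at most 0.00641 over all 6 runs that left out a library).

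Scn4b encodes a beta subunit of the sodium channel, of the kind that tunes the gating and membrane delivery of the pore. It rose to 629 ± 109 CPM in HP, against 379 ± 88.6 CPM in NP libraries (0.73 ± 0.22, edgeR adjusted p = 0.0197), a call lost without HP replicate 1 (0.59, edgeR adjusted p = 0.0739) and with scaling by library size alone (0.26, edgeR adjusted p = 0.181). Scaled to the 10 myofibre genes its sign turned (-0.17, edgeR adjusted p = 0.273).

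Of 6 genes tested in the list of sodium channel subunits other than Scn4a, 1 rose, which was Scn4b, and 1 fell, with a median log2 fold change of -0.44. Scn7a, an atypical member of the channel family linked to sodium sensing, fell to 28.8 ± 3.94 CPM in HP, against 62.0 ± 1.87 CPM in NP libraries (-1.11 ± 0.12, edgeR adjusted p = 0.000372).

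Clcn1 (ENSMUSG00000029862) lies on the plus strand at chr6:42286685-42315756 (GRCm38, GENCODE M21). Fam131b overlaps 8.20% of its exonic bases on the opposite strand. Since the strand setting of the counting is not given in the sources used here, reads from there leave the Clcn1 count uncertain by an unknown amount. Clcn1 stood at 305, 205 and 255 CPM in HP replicates 1, 2 and 3, against 139, 92.5 and 168 CPM in NP replicates 1, 2 and 3. The diets did not overlap, although HP replicate 2 was nearer to NP replicate 3 than to HP replicate 1. The means were 255 ± 49.98 CPM in HP and 133 ± 38.0 CPM in NP libraries, a rise of 0.94 ± 0.23 on the log2 scale (edgeR adjusted p = 0.00947). The call was lost when counts were scaled by library size (0.47, edgeR adjusted p = 0.0564) and when log2(FPKM + 1) values were tested instead (0.54, limma adjusted p = 0.0719).

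The balance between the chloride and sodium channels was compared within each library. The ratio of Clcn1 to Scn4a counts was 0.457, 0.367 and 0.454 in HP replicates 1, 2 and 3, against 0.588, 0.524 and 0.568 in NP replicates 1, 2 and 3. Every HP ratio was below every NP ratio, a log2 difference of -0.40. The two-sided exact permutation p was 0.1, before and after adjustment over the 4 pairs compared. This is the smallest that 3 against 3 libraries allow, so no such ratio could pass 0.05. On the authors' FPKM values the ratios overlapped between the diets and the log2 difference was -0.29 (exact permutation p = 0.2).

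Atp1b1 (ENSMUSG00000026576) lies on the minus strand at chr1:164437109-164458355 (GRCm38, GENCODE M21). Nme7 overlaps 18.7% of its exonic bases on the opposite strand, which leaves its count uncertain by reads from there. It stood at 168, 149 and 117 CPM in HP replicates 1, 2 and 3, against 161, 109 and 163 CPM in NP replicates 1, 2 and 3. The diets overlapped over nearly their whole ranges. The means were 145 ± 25.9 CPM in HP and 144 ± 30.1 CPM in NP libraries, and the log2 fold change of 0.0033 ± 0.19 (edgeR adjusted p = 0.989) had an approximate 95% interval of -0.42 to 0.43. A change of up to that size in either direction is therefore within the error. Its sign turned without NP replicate 2 (-0.16, edgeR adjusted p = 0.399). It fell past the threshold when counts were scaled by library size (-0.47, edgeR adjusted p = 0.0225) and when log2(FPKM + 1) values were tested (-0.47, limma adjusted p = 0.0352).

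The promoters of Clcn1 and Atp1b1 are shown, picked after the motifs found in them were seen to differ. Whether the motifs have a part in the changes with diet was not tested. RefSeq promoter sequence (GRCm38.p6) was matched for 4 of the 5 genes, and the 250 bases before each start were searched on both strands for 6 motifs. These were the E-box (CANNTG) bound by myogenic factors, the MCAT element of muscle genes (CATTCCT), the FoxO site (TGTTTAC), the GC box (GGGCGG) and, by name, the MEF2 and CArG sites. The TATA box (TATAAA) was searched on the gene's strand. Capitals mark every match. The windows are chr6:42286435-42286684 (plus strand) for Clcn1 and chr1:164458356-164458605 (minus strand) for Atp1b1, each read 5′ to 3′ along the gene.
Clcn1: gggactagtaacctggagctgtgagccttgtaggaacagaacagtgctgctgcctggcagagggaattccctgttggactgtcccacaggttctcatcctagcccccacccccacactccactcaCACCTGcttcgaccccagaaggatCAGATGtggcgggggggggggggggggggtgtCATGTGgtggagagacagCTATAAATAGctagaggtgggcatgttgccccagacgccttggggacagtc
Atp1b1: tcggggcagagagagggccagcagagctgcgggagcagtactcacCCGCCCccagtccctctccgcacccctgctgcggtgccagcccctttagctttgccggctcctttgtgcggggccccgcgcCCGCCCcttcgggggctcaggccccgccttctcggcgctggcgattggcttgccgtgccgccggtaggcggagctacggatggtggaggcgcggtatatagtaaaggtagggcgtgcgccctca
The Clcn1 window held 3 E-boxes and a MEF2 match that overlaps a TATA box. An E-box occurs in 66.2% of the 32851 RefSeq promoters of this length, a MEF2 match in 2.92% and a TATA box in 7.59%. The Atp1b1 window held 2 GC boxes, a motif present in 32.7% of promoters. Its G and C content was 70.4%, against 60.0% in Clcn1 and a median of 52.4%. The RefSeq windows of Scn4a and Fxyd1 lie inside the gene spans of GENCODE M21, so their starts are in doubt. No match to any of these motifs was found in them, which may not hold for their true promoters. A match of letters is no evidence that a factor binds.

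Atp1b2 (ENSMUSG00000041329) lies on the minus strand at chr11:69599736-69605942 (GRCm38, GENCODE M21) and shares no exonic base with another annotated gene. It stood at 262, 249.9 and 258 CPM in HP replicates 1, 2 and 3, against 115, 108 and 148 CPM in NP replicates 1, 2 and 3. The HP libraries were close together and all far above the NP libraries. The means were 257 ± 6.08 CPM in HP and 124 ± 20.995 CPM in NP libraries, and the log2 fold change was 1.05 ± 0.15 (edgeR adjusted p = 0.00088). It had the smallest p of the 5 genes. Without any one library its log2 fold change stayed between 0.97 and 1.19 (edgeR adjusted p at most 0.00523).

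The balance between the beta subunits can be read within each library, whatever the scaling between libraries. The ratio of Atp1b2 to Atp1b1 counts was 1.56, 1.68 and 2.21 in HP replicates 1, 2 and 3, against 0.715, 0.991 and 0.906 in NP replicates 1, 2 and 3. The lowest HP ratio was well above the highest NP ratio. The ratio was 2.08-fold higher in HP (exact permutation p = 0.1, adjusted p = 0.1 over the 4 pairs), and 2.05-fold higher on the authors' FPKM values. Per length, by FPKM, Atp1b2 made up 46.6 ± 4.85% of the summed level of the genes Atp1b1 to Atp1b4 in HP and 28.0 ± 2.40% in NP libraries, and Atp1b1 40.0 ± 5.53% in HP and 49.1 ± 4.40% in NP libraries (exact permutation p = 0.1 each).

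Fxyd1 (ENSMUSG00000036570) lies on the minus strand at chr7:31051678-31057199 (GRCm38, GENCODE M21) and shares no exonic base with another annotated gene. It stood at 296, 308 and 301 CPM in HP replicates 1, 2 and 3, against 269, 182 and 218 CPM in NP replicates 1, 2 and 3. The HP libraries agreed closely and lay above the more scattered NP libraries, NP replicate 1 being nearest to them. The means were 301 ± 5.88 CPM in HP and 223 ± 43.5 CPM in NP libraries, and the log2 fold change of 0.43 ± 0.16 was at the edge of the threshold (edgeR adjusted p = 0.0491). The call was lost without HP replicate 1, 2 or 3 (edgeR adjusted p = 0.0930, 0.113 and 0.109) and without NP replicate 2 (0.31, edgeR adjusted p = 0.0752) or NP replicate 3 (0.41, edgeR adjusted p = 0.122). Scaled by library size the sign turned (-0.027, edgeR adjusted p = 0.863), and with log2(FPKM + 1) values it stood at 0.051 (limma adjusted p = 0.748).

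Phospholemman was also set against each beta subunit within a library. The 3 ratios among Fxyd1, Atp1b1 and Atp1b2 are not separate results, since any 2 of them fix the other. The ratio of Fxyd1 to Atp1b1 counts was 1.76, 2.06 and 2.58 in HP replicates 1, 2 and 3, against 1.67, 1.67 and 1.34 in NP replicates 1, 2 and 3. Every HP ratio was above every NP ratio, although HP replicate 1 was close to NP replicates 1 and 2 (log2 difference 0.44, exact permutation p = 0.1). The ratio of Fxyd1 to Atp1b2 counts was 1.13, 1.23 and 1.17 in HP replicates 1, 2 and 3, against 2.34, 1.68 and 1.48 in NP replicates 1, 2 and 3. Here every HP ratio was below every NP ratio (log2 difference -0.61, exact permutation p = 0.1), and the HP libraries were the closer together. Both ratios kept their direction on the authors' FPKM values, with log2 differences of 0.53 for Fxyd1 to Atp1b1 and -0.51 for Fxyd1 to Atp1b2 (exact permutation p = 0.1 each).

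**Figure D2:**
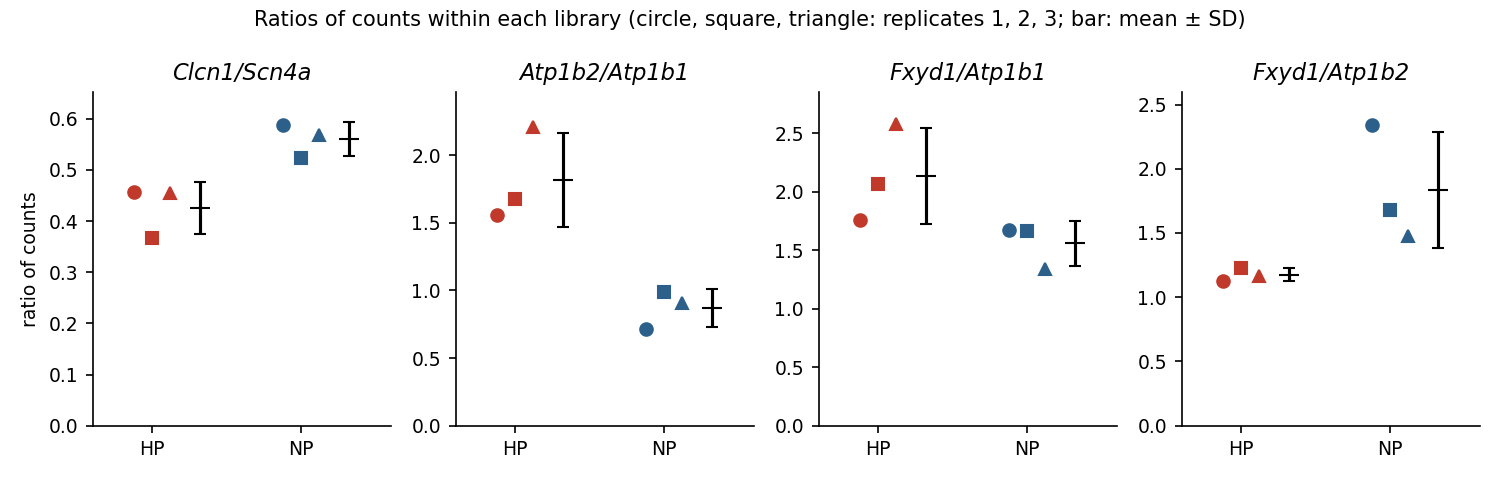
Ratio of the counts of 2 genes within each library for the 4 pairs, with HP left of NP; symbols are replicates 1, 2 and 3, bars are mean ± SD, and each axis starts at 0. The diets overlap in none of the 4 pairs; the Atp1b2/Atp1b1 ratio is 1.82 ± 0.346 in HP and 0.871 ± 0.141 in NP libraries, and the Fxyd1/Atp1b2 ratio 1.18 ± 0.0510 in HP and 1.83 ± 0.453 in NP libraries.

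Levels of different genes were compared per length with the authors' FPKM values. In HP libraries Fxyd1 was highest at 332 ± 23.1 FPKM, followed by Atp1b2 (64.3 ± 5.85 FPKM), Scn4a (55.8 ± 2.15 FPKM), Atp1b1 (55.3 ± 8.32 FPKM) and Clcn1 (50.5 ± 8.97 FPKM). The last 3 did not differ beyond their spread. In NP libraries the order was Fxyd1 (322 ± 38.7 FPKM), Atp1b1 (76.6 ± 7.45 FPKM), Atp1b2 (43.8 ± 5.79 FPKM), Clcn1 (34.6 ± 8.27 FPKM) and Scn4a (31.3 ± 5.98 FPKM), of which the last 3 overlapped with their neighbours. Atp1b1 thus ranked above Atp1b2 in NP but below it in HP libraries by mean, with HP replicate 1 at 61.6 FPKM for Atp1b1 and 61.4 FPKM for Atp1b2.

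**Figure D3:**
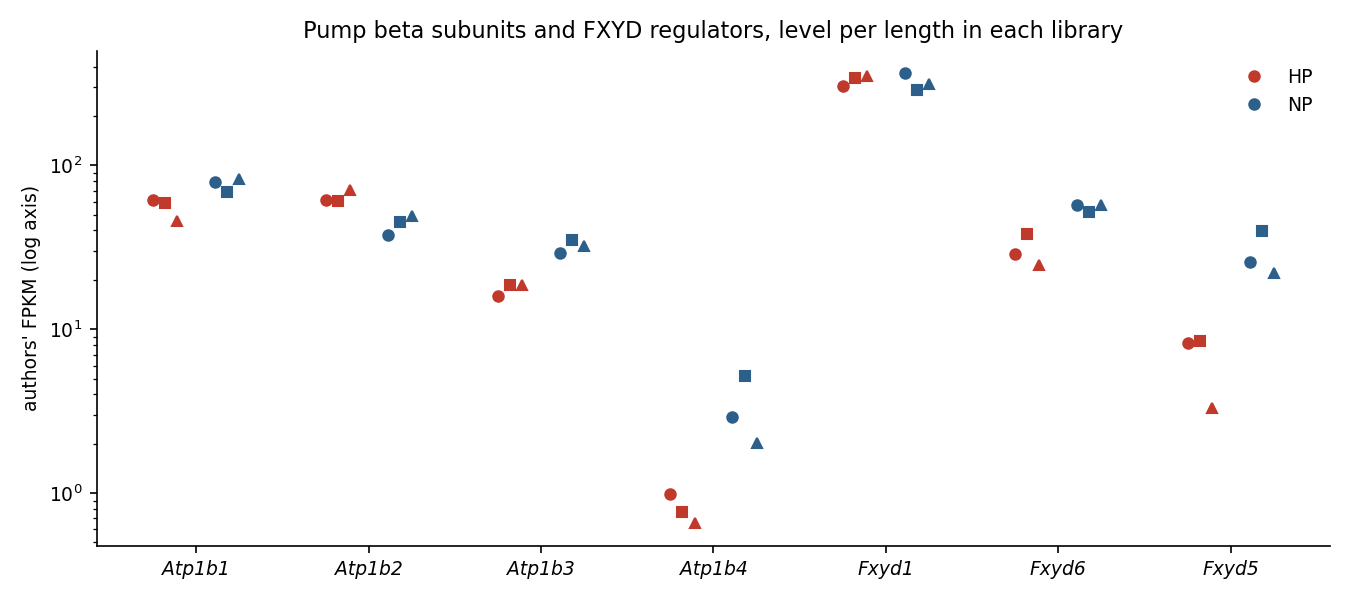
The authors' FPKM values on a log axis for the genes Atp1b1 to Atp1b4 and 3 FXYD genes in each library, HP left of NP for each gene; symbols are replicates 1, 2 and 3. Fxyd1 is the most abundant, and Atp1b2 lies higher in HP than in NP libraries. Atp1b1, Atp1b3, Atp1b4, Fxyd5 and Fxyd6 lie lower in HP than in NP libraries on these values.

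The size and in part the direction of these changes depended on the scaling. TMM factors were 0.795 to 0.882 in HP and 1.10 to 1.29 in NP libraries, and with library size alone the median over all genes moved from -0.016 to -0.49 (log2). There Scn4a (0.87, edgeR adjusted p = 0.00188) and Atp1b2 (0.58, edgeR adjusted p = 0.00478) passed the test as higher, as 5.72% of all genes did, and Atp1b1 as lower, as 51.4% did, out of 57.1% called. With log2(FPKM + 1) values the same 3 genes passed in the same directions, among 4.72% of all genes higher and 36.8% lower, 41.6% in all. Scaled so that the geometric mean of 10 skeletal myofibre genes was equal in all libraries, the median of all genes was -0.94. On that scale Scn4a was still called as higher (0.44, edgeR adjusted p = 0.0118), as were 1.63% of all genes, whereas Atp1b2 (0.15, edgeR adjusted p = 0.414) and Clcn1 (0.047, edgeR adjusted p = 0.794) were not called. Atp1b1 (-0.90, edgeR adjusted p = 0.000195) and Fxyd1 (-0.46, edgeR adjusted p = 0.0143) fell past the threshold on it, as did 74.7% of all genes out of 76.3% called.

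**Figure D4:**
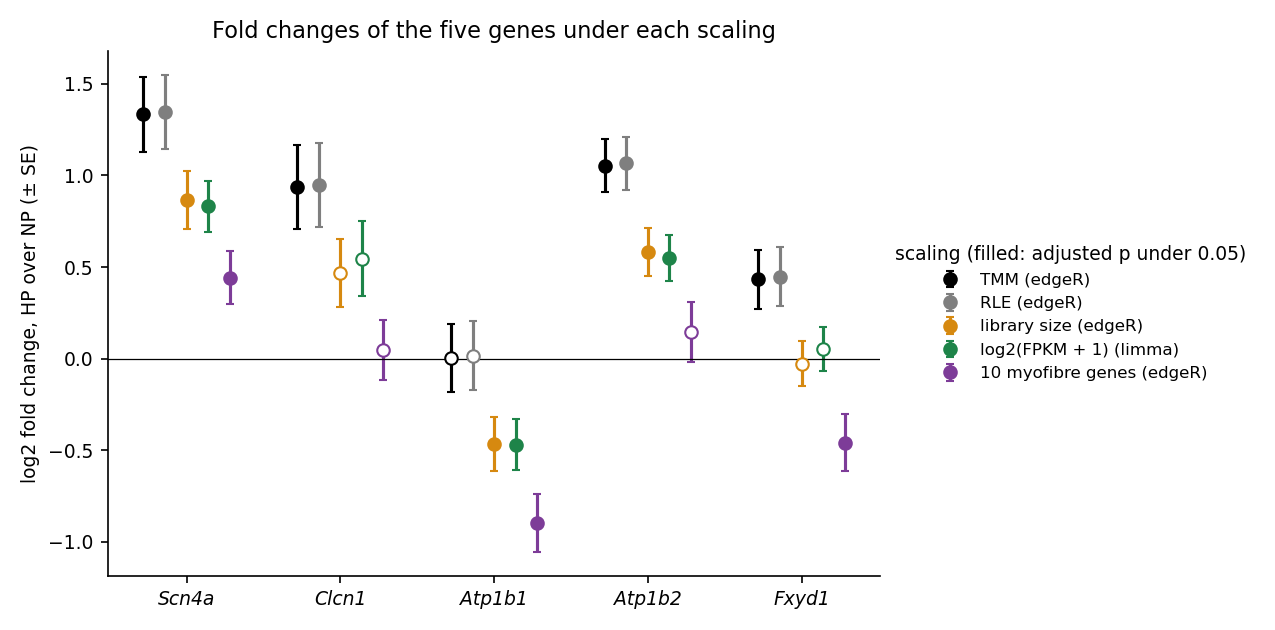
Log2 fold change (HP over NP, ± SE) of each of the 5 genes under 5 ways of scaling; filled points have an adjusted p under 0.05. Scn4a is above 0 and filled under all 5, whereas Atp1b1 runs from 0.017 with RLE size factors to -0.90 when scaled to the myofibre genes.

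The myofibre and fast fibre genes rose in the same libraries. Of the 10 myofibre markers 9 rose and 0 fell, with a median log2 fold change of 1.04. Of 10 fast fibre markers 8 rose and 0 fell with TMM scaling (median 1.11), and of 8 slow fibre markers 0 rose and 7 fell (median -1.37). Among the fast fibre genes that rose, Tnnc2 had only 5.68 ± 1.14 CPM in HP and 2.67 ± 0.898 CPM in NP libraries. Its FPKM means were 12771 in HP and 8549 in NP libraries, so its counts do not give its level. On FPKM values the diets overlapped for Tnnt3, but not for the other fast fibre genes that rose. Several markers of other cells had lower sums in HP libraries, the summed level being 552 to 952 CPM in HP and 2340 to 2976 CPM in NP libraries for 7 white adipocyte genes, 2143 to 2376 CPM in HP and 4228 to 10070.0 CPM in NP libraries for 6 fibroblast genes, 275 to 419 CPM in HP and 796 to 1483 CPM in NP libraries for 6 macrophage genes, and 433 to 601 CPM in HP and 742 to 892 CPM in NP libraries for 6 endothelial genes. The 5 B cell genes had the lowest median log2 fold change of these lists (-4.69), with sums of 0.962 to 1.83 CPM in HP libraries, against 9.004, 56.2 and 53.3 CPM in NP replicates 1, 2 and 3. Every tested gene of the adipocyte, fibroblast, endothelial and B cell lists fell, as did 5 of the 6 macrophage genes; the sixth, Cd163, named after its value was seen, rose with overlapping diets (0.59 ± 0.22, edgeR adjusted p = 0.0494). The 6 Schwann cell genes summed to 182 to 256 CPM in HP and 210.0 to 263 CPM in NP libraries, and the 6 smooth muscle and pericyte genes to 724 to 1028 CPM in HP and 1154 to 1256 CPM in NP libraries; 1 of each fell and 0 rose. The 4 satellite cell genes summed to 20.0 to 28.1 CPM in HP and 24.3 to 37.6 CPM in NP libraries, with 1 falling, and the 5 red blood cell genes, of which none was called, to 114 to 727 CPM in HP and 215 to 391 CPM in NP libraries. No marker in these lists was at 0 in all libraries. The part of fibre type and cell makeup in the changes of the 5 genes was not tested. The scaling to myofibre genes above is no such test, since it holds those genes equal by construction.

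Other genes of membrane excitability and of sodium and chloride transport moved both ways. Of 55 tested in 7 lists, 19 rose and 14 fell, where 23.0% of all genes tested rose and 26.3% fell. The median log2 fold change of the 55 was -0.031. With library size alone 5 rose and 27 fell, where 5.72% of all genes rose and 51.4% fell. In the pump list, Atp1b3, encoding beta 3, fell to 52.9 ± 2.96 CPM in HP, against 69.7 ± 0.747 CPM in NP libraries (-0.40 ± 0.093, edgeR adjusted p = 0.00702). Atp1b4, whose product in mammals sits at the inner nuclear membrane and not in the pump, fell too (-1.59 ± 0.31, edgeR adjusted p = 0.00407). Atp1a4, named after its value was seen, rose at a level near the filter, with 1.02 ± 0.275 CPM in HP and 0.403 ± 0.0510 CPM in NP libraries (1.33 ± 0.33, edgeR adjusted p = 0.00973). Of 5 other FXYD genes tested 0 rose and 1 fell, Fxyd5, encoding dysadherin, which had 15.6 ± 2.19 CPM in HP and 35.6 ± 8.23 CPM in NP libraries (-1.19 ± 0.18, edgeR adjusted p = 0.00111).

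Of 13 other chloride channel genes tested, 3 rose and 3 fell, which is near the shares over all genes (23.0% rose and 26.3% fell). Ano1, a calcium-activated chloride channel (-1.25 ± 0.20), Clcn5, an endosomal chloride/proton exchanger (-1.26 ± 0.24), and Lrrc8d, a subunit of the volume-regulated anion channel (-1.14 ± 0.15), fell, at edgeR adjusted p values of 0.00155, 0.00312 and 0.000715. Clcn4, another endosomal exchanger, rose (0.42 ± 0.10, edgeR adjusted p = 0.00828). Its sign turned, however, with library size alone (-0.060), with log2(FPKM + 1) values (-0.13) and when scaled to the myofibre genes (-0.51). Clcn3 (0.49 ± 0.15) and Ano5 (0.63 ± 0.20), named after their values were seen, rose as well with TMM scaling (edgeR adjusted p = 0.0256 and 0.0245). On the authors' FPKM values the diets overlapped for both, and Clcn3 averaged 11.4 ± 1.81 FPKM in HP and 10.9 ± 1.78 FPKM in NP libraries.

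Transporters that set the chloride and sodium gradients also changed. Slc12a2, which encodes the sodium-potassium-chloride cotransporter NKCC1 that brings chloride into cells, rose to 143 ± 1.62 CPM in HP, against 72.5 ± 6.60 CPM in NP libraries (0.98 ± 0.11, edgeR adjusted p = 0.000462). The potassium-chloride cotransporters Slc12a7 (-0.67 ± 0.12, edgeR adjusted p = 0.00195) and Slc12a4 (-0.38 ± 0.13, edgeR adjusted p = 0.0331), which carry chloride out, fell; the call of Slc12a4 was lost without HP replicate 2 (-0.31), HP replicate 3 (-0.31) or NP replicate 2 (-0.30). Scaled to the myofibre genes, Slc12a2 was at 0.072 (edgeR adjusted p = 0.697). Among 6 sodium exchangers, 2 rose and 1 fell. The sodium/proton exchanger Slc9a2 (1.05 ± 0.15) and the sodium/calcium exchanger Slc8a1 (0.94 ± 0.17) rose, and the mitochondrial sodium/calcium exchanger Slc8b1 (-0.73 ± 0.11) fell, at edgeR adjusted p values of 0.000991, 0.00238 and 0.00131. With library size alone Slc8a1 was not called (0.45), and scaled to the myofibre genes it stood at -0.0084. Slc9a2 was not called when scaled to the myofibre genes either (0.16, edgeR adjusted p = 0.461).

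Of 17 genes tested that anchor or regulate channels and pump, 11 rose and 4 fell with TMM scaling, where 23.0% of all genes rose. This list was not counted alone under other scalings, but over all 7 lists 1 gene rose and 38 fell when scaled to the myofibre genes. Sgk1, a kinase that raises the activity of sodium channels and of the pump in epithelia, rose to 292 ± 7.60 CPM in HP, against 111 ± 8.55 CPM in NP libraries (1.39 ± 0.12, edgeR adjusted p = 0.00023). Prkca, a protein kinase C that phosphorylates phospholemman, had 123 ± 11.9 CPM in HP and 64.2 ± 7.08 CPM in NP libraries (0.93 ± 0.12, edgeR adjusted p = 0.000758), but stood at 0.0093 when scaled to the myofibre genes (edgeR adjusted p = 0.962). Oxsr1, a kinase that activates NKCC1, also rose (0.91 ± 0.13, edgeR adjusted p = 0.00104), but not with log2(FPKM + 1) values (0.16), and its sign turned when scaled to the myofibre genes (-0.011). The related kinase gene Stk39, named after its value was seen, went the other way (-0.76 ± 0.21, edgeR adjusted p = 0.0144). It had 5.42 ± 1.22 CPM in HP and 9.13 ± 1.77 CPM in NP libraries, and its FPKM values overlapped between the diets. The family of intracellular factors that bind sodium channels moved both ways. Fgf11 had 4.48 ± 0.644 CPM in HP and 10.96 ± 0.237 CPM in NP libraries (-1.29 ± 0.15, edgeR adjusted p = 0.000501). Fgf14 and Fgf13 were named after their values were seen. Fgf14 fell as well (-2.04 ± 0.38, edgeR adjusted p = 0.00255), at a level near the filter. It had 0.457 ± 0.171 CPM in HP, with counts of 12, 11 and 5, and 1.91 ± 0.589 CPM in NP libraries. Fgf13 rose to 39.8 ± 5.32 CPM in HP, against 23.9 ± 4.07 CPM in NP libraries (0.74 ± 0.15, edgeR adjusted p = 0.004), although its FPKM values overlapped between the diets.

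**Figure D5:**
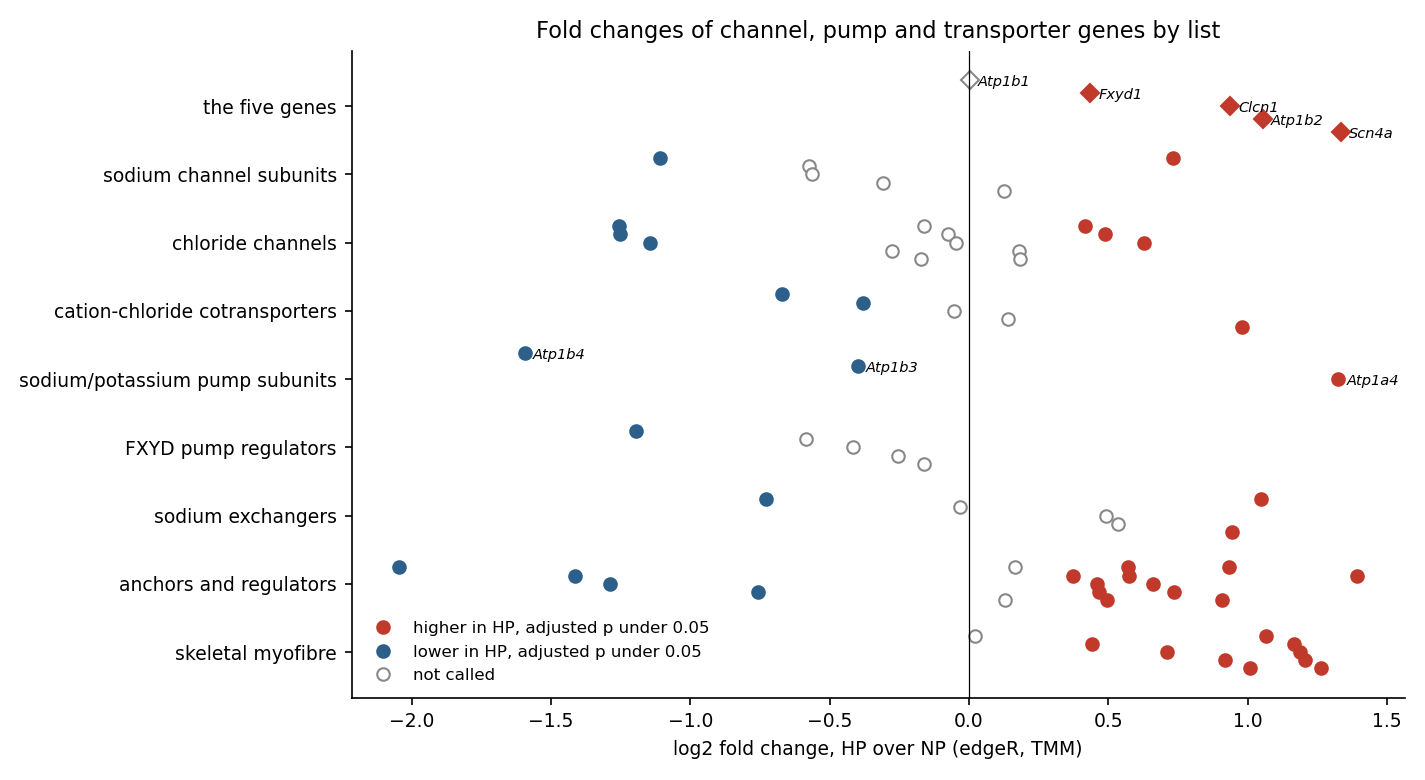
Log2 fold change (HP over NP) of the 5 genes (diamonds), of the tested genes in 7 lists of channels, pump subunits, transporters and regulators, and of 10 skeletal myofibre genes; red is higher and blue lower in HP at an adjusted p under 0.05, and open symbols were not called. The channel, cotransporter, pump, exchanger and regulator lists each hold called genes on both sides of 0, whereas 9 of the 10 myofibre genes are red.

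For each of the 5 genes, the 3 most similar of 12620 genes were sought by the root mean square difference of their log2 CPM profiles over the 6 libraries, each centred on its own mean. This likeness contains the diet difference and, as a description, has no test. Nearest to Scn4a were Egf (0.068), Camk2a (0.076) and Atp2a1 (0.079), the last encoding the calcium pump of fast fibres. Clcn1 had Satb1 (0.065), the titin gene Ttn (0.068) and Ppat (0.069). Atp1b2 had Tbc1d16 (0.040), Rhobtb2 (0.070) and Alkbh5 (0.081), and Fxyd1 had the small heat shock gene Hspb2 (0.020), Mrps15 (0.029) and Cutc (0.032). Atp1b1 was closest to Dhodh (0.069), Map2k3os (0.084) and Yjefn3 (0.084), none of which was called. Among the 5 genes themselves, Scn4a and Atp1b2 were the most alike (0.20) and Scn4a and Atp1b1 the least (0.69).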

How the data were processed

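RNA of gastrocnemius was sequenced in 6 libraries, 3 per diet, grouped and numbered by their titles. The authors deposited a table of raw, whole-number read counts per gene and a table of FPKM values; the tool behind the second is not given in the sources used here. The submitters' processing notes name Trim Galore 0.4.1, HISAT2 2.0.1, featureCounts 1.4.6, DESeq2 1.6.3 and GRCm38, with no roles. Neither the annotation release nor the strand setting is stated there.

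Counts were tested with edgeR 4.0.16 (R 4.3.3): TMM, filterByExpr, robust quasi-likelihood F test, Benjamini-Hochberg adjustment over 15347 genes, called at an adjusted p under 0.05. The SE is the log2 fold change divided by the square root of F, and intervals use the fit's degrees of freedom. The common biological coefficient of variation was 0.161. Between libraries of one diet the chi-square of the counts was 18.3 to 60.4 per degree of freedom, so none was a copy. For ratios within a library the two-sided exact permutation test went over 20 arrangements.

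The genes and lists were chosen with earlier results of these data known. Named besides the 5 genes were up to 4 called genes per list by smallest p, if their mean reached 1 CPM, and Slc12a2. Of 69 list entries, 67 were found in the count table; some further genes and ratios are not reported here, and counts and adjustments leave them out. Alternatives were limma 3.58.1 on voom weights, limma-trend on log2(FPKM + 1), which understates changes of low genes, DESeq2 1.42.0, other scalings and filters, the replicate number as a block, and leaving out each library. A further alternative was the main fit called at an adjusted p under 0.1. Exon overlaps and shared 50-base stretches used GENCODE M21.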

Additional observations from a re-analysis of the deposited data

How the results depend on the processing

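Scn4a kept its direction and its call under all 19 alternatives to the edgeR fit with TMM (0.44 to 1.52). These include the same fit called at an adjusted p under 0.1, where neither could change. Atp1b2 lost its call only when scaled to the 10 myofibre genes (0.15), and Clcn1 with that scaling (0.047), with library size alone (0.47), on log2(FPKM + 1) with and without the filter (0.54) and on log2(FPKM + 0.1) (0.56). Fxyd1 lost its call on log2(FPKM + 1) with and without the filter (0.051), on log2(FPKM + 0.1) (0.052) and with a filter of 1 CPM in 3 libraries (0.42), and reversed with library size alone (-0.027) and the myofibre scaling (-0.46). Atp1b1 reversed with library size alone (-0.47), the myofibre scaling (-0.90), the filter of 1 CPM (-0.014), log2(FPKM + 1) with and without the filter (-0.47), log2(FPKM + 0.1) (-0.48), and without HP replicate 1 (-0.11), HP replicate 2 (-0.0058) or NP replicate 2 (-0.16). The alternatives differ by construction in what they hold equal between libraries; which scale is right was not tested. Leaving out each library in turn gave log2 fold changes of 1.16 to 1.52 for Scn4a, 0.73 to 1.13 for Clcn1, -0.16 to 0.15 for Atp1b1, 0.97 to 1.19 for Atp1b2 and 0.31 to 0.59 for Fxyd1, with 6152 to 7577 genes called.

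Of all genes, 878 were higher and 7886 lower with library size alone, and 250 higher and 11465 lower (11715 in all) with the myofibre scaling. Higher were 725, 744 and 653 genes on log2(FPKM + 1), log2(FPKM + 0.1) and log2(FPKM + 1) without a filter. Of the listed genes, 5 were higher and 27 lower with library size alone, 1 higher and 38 lower with the myofibre scaling, and 5, 5 and 1 higher on the same FPKM scales; leaving out each library gave 14 to 18 higher and 13 to 15 lower. Clcn4 reversed with library size alone (-0.060), the myofibre scaling (-0.51), log2(FPKM + 1) with and without the filter (-0.13) and log2(FPKM + 0.1) (-0.14). Scn4b (-0.17), Slc8a1 (-0.0084) and Oxsr1 (-0.011) reversed with the myofibre scaling. The 4 ratios kept their direction on FPKM values and without each library.

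Over all genes tested, same-numbered libraries did not deviate together (correlations of -0.021, 0.022 and 0.019 for replicates 1, 2 and 3). This cannot exclude a pairing that touches some genes only. The SE of Clcn1, for one, was 0.16 with the replicate number as a block and 0.23 without it. With the replicate block 7328 genes were called and Fxyd1 stood at 0.45 (edgeR adjusted p = 0.0531), and no other of the 5 genes changed its call. With 3 libraries per diet the ratio tests cannot go below 0.1.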

Other observations

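The splicing regulators of the Clcn1 transcript were described after their values were seen, from the list of anchors and regulators. Mbnl1, a muscleblind factor whose loss leads to faulty Clcn1 splicing in myotonic dystrophy, had 664 ± 30.4 CPM in HP and 446 ± 86.2 CPM in NP libraries (0.58 ± 0.18, edgeR adjusted p = 0.0253). Its relative Mbnl2 had 262 ± 4.98 CPM in HP and 186 ± 21.5 CPM in NP libraries (0.49 ± 0.13, edgeR adjusted p = 0.0138). Celf1, which acts against the muscleblind factors on many exons, had 143 ± 15.1 CPM in HP and 104 ± 9.30 CPM in NP libraries (0.46 ± 0.13, edgeR adjusted p = 0.0149). With TMM scaling all 3 were higher in HP without overlap between the diets, as 30.3% of all genes were. On the authors' FPKM values the diets overlapped for all 3, and Celf1 averaged 12.8 ± 0.482 FPKM in HP and 13.0 ± 0.738 FPKM in NP libraries. Counts per gene do not show which exons of Clcn1 were used. Sntb1, which encodes a protein of the dystrophin complex at the fibre membrane, had 4.83 ± 1.79 CPM in HP and 12.9 ± 0.626 CPM in NP libraries (-1.41 ± 0.25, edgeR adjusted p = 0.00212).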
